A study of Homo sapiens with 2 samples.

Results

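The genes described here encode the proteins of the cytosolic ribosome and the factors that start, extend and end translation. Members were taken by name from an FPKM table: names of RPL or RPS and a number, RPLP0 to RPLP2, RPSA, EIF and a digit, EEF, and ETF1, without pseudogenes, RPS6K kinases and EIF2AK kinases. There were 137 such names among 12494 in all: 80 ribosomal proteins, 37 initiation factors, 9 elongation and release factors, and 11 further names that the rule takes in, such as binding proteins, kinases of factors and 1 antisense RNA. All 137 reached the level of 1 FPKM asked of a gene to be compared, as did 12405 names in all, so no member was lost to that filter.

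Polyadenylated RNA was taken from SBC5, a human line established from a small cell lung cancer, with 1 library per group. The resistant cells (SBC5 CPr) had been selected by cisplatin, a platinum drug that crosslinks DNA, in steps of 1, 2, 4 and 20 µg/ml. The parental SBC5 cells had not. Both groups carry the same cell line label and were grown in the same medium. The labels do not say whether the resistant derivative is 1 clone, nor whether cisplatin was present when RNA was taken. Without replicates no test could be made and no p-value is given: each difference compares these 2 libraries, and in bulk RNA fewer cells with a transcript and less of it per cell cannot be told apart.

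The ribosome joins a small 40S subunit, which decodes the message, to a large 60S subunit, which forms peptide bonds. Each subunit holds roughly 1 copy of each of its proteins, and their mRNAs are among the most abundant of a growing cell. Many of these mRNAs begin with a 5′ terminal oligopyrimidine (TOP) tract, a C followed by a run of C and T, through which the growth kinase mTORC1 and the RNA-binding protein LARP1 set their translation. Initiation factors bring the 40S subunit and the first tRNA to the capped end of the mRNA, elongation factors deliver further tRNAs and move the ribosome along, and ETF1 ends the chain at stop codons.

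The tract shows in the sequence at the annotated starts of these genes. The set below holds the 20 bases before each start and the first 10 of the transcript, from RefSeq (build GRCh38.p14, the same reference as the hg38 named for the files). They are examples, picked with their values in view, among genes with low and high ratios, abundant members and paralogue pairs. Capitals mark a run that begins with C, goes on in C or T for at least 5 bases in all, and has that first C within 5 bases of the annotated start. C and T may go on before it, as they do in RPL13A.
RPL38 (chr17:74203658-74203687, plus strand): ccggaaacggaagtctcgttCTTTTTCgtc
RPLP1 (chr15:69452798-69452827, plus strand): gctgcgtataggcgcgagagCCCCTTTCCT
RPL12 (chr9:127451397-127451426, minus strand): cttgtccgcgcgatttccggCCTCTCggct
RPL27 (chr17:42998399-42998428, plus strand): cctcaccggggtgaaaggttagcggaagtg
RPL41 (chr12:56116613-56116642, plus strand): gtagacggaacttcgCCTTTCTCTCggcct
RPS12 (chr6:132814549-132814578, plus strand): ggcatgcgtgcggatgaggCCTCTTTCCCT
RPL13A (chr19:49487588-49487617, plus strand): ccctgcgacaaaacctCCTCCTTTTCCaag
RPL28 (chr19:55385912-55385941, plus strand): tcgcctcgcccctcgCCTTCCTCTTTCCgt
RPS27 (chr1:153990742-153990771, plus strand): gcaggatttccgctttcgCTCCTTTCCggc
RPS27L (chr15:63157468-63157497, minus strand): cccggaagttgatgccgagcgcagatcgct
RPL22 (chr1:6199586-6199615, minus strand): ctgcgtagttcgctcaCCTCCCTTTCTaac
RPL22L1 (chr3:170870186-170870215, minus strand): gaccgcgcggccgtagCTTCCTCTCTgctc
EEF1A1 (chr6:73521023-73521052, minus strand): cagtagtcgccgtgaacgttCTTTTTCgca
EEF2 (chr19:3985454-3985483, minus strand): tgagtgttgacgtcagcgttCTCTTCCgcc
EIF4E3 (chr3:71754764-71754793, minus strand): gcggccgaagcccgccgtccagttggcggc

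In RPL38, RPLP1, RPL12, EEF1A1 and EEF2 the run began on the annotated first base itself. RPL27, RPS27L and EIF4E3 had no such run in the window, which says only that those letters are not there. Among the 65 of 80 ribosomal protein genes with a RefSeq entry, 42 (64.6%) had a run of at least 5 starting with C on the first base, against 1104 of all 27305 promoters (4.04%) and 497 of the 9362 promoters of genes compared (5.31%). Within 5 bases of the start, 51 (78.5%) had one, against 21.1% of all promoters and 22.5% of those of genes compared. Of 31 initiation factor genes 12 (38.7%) had one, and of 8 elongation and release factor genes 3.

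Other letter runs were counted in the same promoters. CTTTC, on the coding strand within 10 bases of the start, was found in 24 ribosomal protein promoters (36.9%), against 2.93% of all promoters; all 24 also had the tract, so the 2 counts overlap. CCGGAAG, the letters bound by ETS factors, on either strand from 250 bases before to 50 after the start, was in 21 (32.3%), against 10.7% of all promoters and 19.4% of those of genes compared. AAGATGGC, a YY1-type run, searched on either strand of the same window, was in 7 (10.8%), against 3.03% of all and 5.57% of those of genes compared. It can overlap CCGGAAG by the letters AAG, and 1 promoter held both. CACGTG, the E-box of MYC and its partners, was in 3 ribosomal protein promoters (4.62%), in 7 of 31 initiation factor promoters (22.6%), in 7.43% of all and in 10.2% of those of genes compared. TATAAA, from 40 to 20 bases before the start, was in 3 ribosomal protein promoters (4.62%) and in 2.48% of all. A match is a string of letters and does not show binding.

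**Figure D1:**
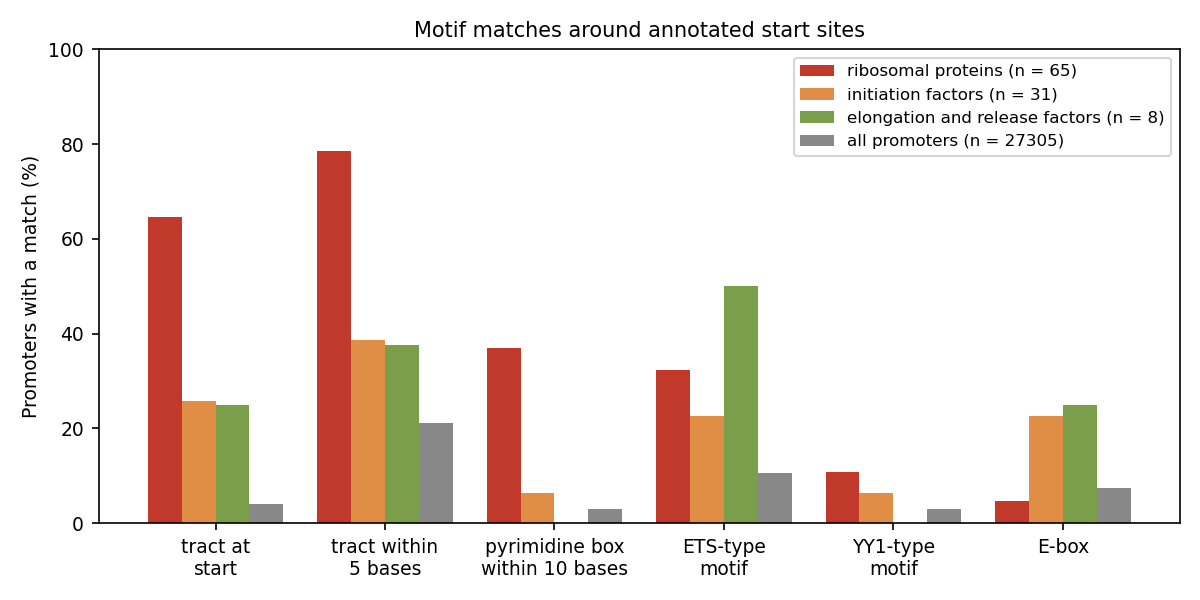
Share of promoters with a match (vertical axis, percent) for 6 motifs (horizontal axis), in 65 ribosomal protein, 31 initiation factor and 8 elongation and release factor promoters and in all 27305 promoters. The tract on the first base stands at 64.6% for ribosomal proteins and 4.04% for all promoters, and the E-box at 4.62% and 7.43%.

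The question was how far mRNAs of protein synthesis differ in cells selected by cisplatin. In this machinery nearly all transcripts differed little. The log2 ratio, resistant over parental on log2(FPKM + 1), had a median of -0.099 over the 137 members, and a single member, EIF4E3, was 2-fold or more apart. By that limit of size, 0 members were higher and 1 was lower, where 3.28% of all 12405 genes compared were higher and 2.70% lower. Among 1065 genes with a mean of at least 100 FPKM, 1.03% were higher and 1.69% lower.

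Of the 137 members, 109 had a ratio below 0, or 79.6%. The share was 55.6% over all genes compared, whose median was -0.037. Among the genes with a mean of at least 100 FPKM, which include members, it was 72.3%, with a median of -0.11. In the 959 of them that are no members it was 71.1%, with a median of -0.115. The share of the members lay closer to that of these abundant genes than to that of all genes. The limit of 100 FPKM was chosen after the values were seen. The size of the lean rests on the scaling of the libraries. MTRNR2L loci, humanin-like copies of a mitochondrial rRNA, took 16.2% of the FPKM sum in the resistant library and 6.84% in the parental library. With equal sums after those loci were left out, the median of all genes became 0.025, above 0. That of the ribosomal proteins was -0.035, still below 0. The abundant genes that are no members were not summarised under that scaling. Before it, their median of -0.115 lay near the -0.10 of the ribosomal proteins, so no lean particular to ribosomal proteins is shown.

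**Figure D2:**
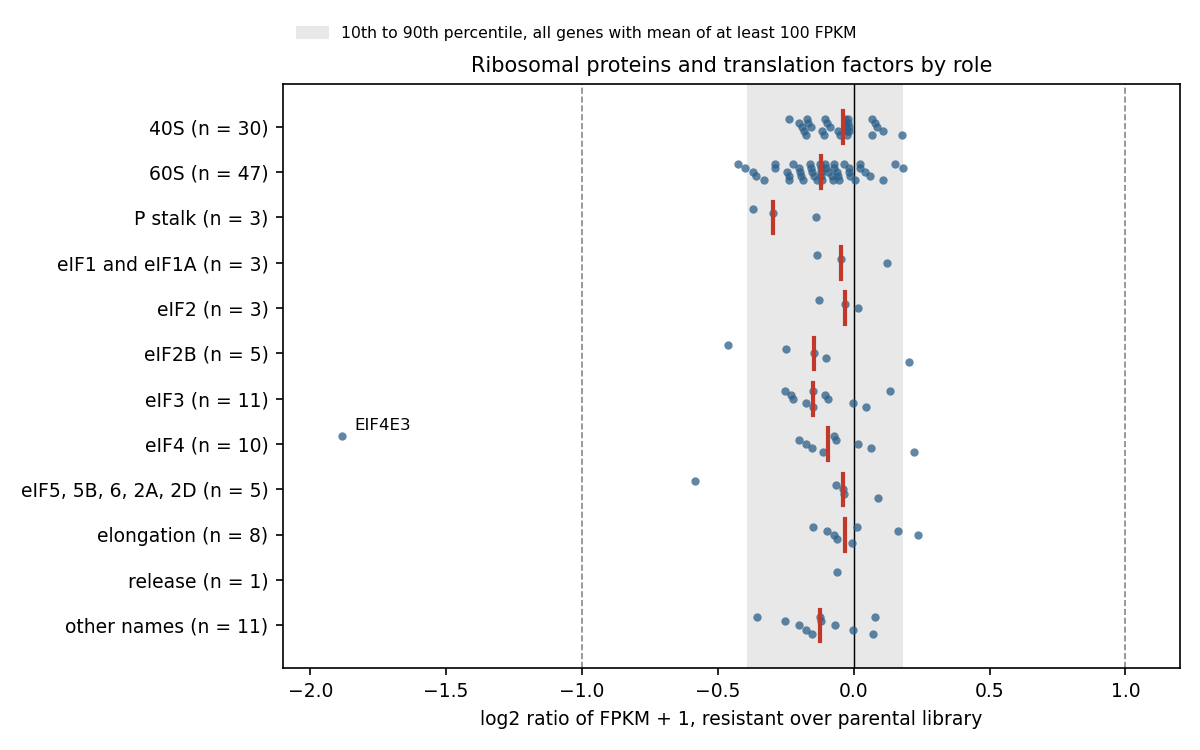
Log2 ratio of FPKM + 1, resistant over parental (horizontal axis), for each of 137 members by role (rows); red bars are medians, dashed lines the 2-fold limits, and the grey band the 10th to 90th percentile (-0.39 to 0.18) of 1065 genes with a mean of at least 100 FPKM. EIF4E3 at -1.88 is the only point past a dashed line.

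The 80 ribosomal protein mRNAs kept to a narrow range. Their ratios ran from -0.43 for RPL27 to 0.18 for RPL28. The SD across genes was 0.13, against 0.37 for the genes with a mean of at least 100 FPKM and 0.51 for all genes. Both of these sets hold far values, such as SLC30A1 at -3.75, that widen their SD. By the 10th to 90th percentile the contrast was smaller, -0.29 to 0.067 for ribosomal proteins and -0.39 to 0.18 for the abundant genes. The 2 sets were not matched for level. The median level of ribosomal proteins was 828 FPKM in resistant and 876 FPKM in parental cells, and that of the abundant genes 162 and 181 FPKM. The median was -0.10; 66 lay below 0 and 14 above, and none reached 2-fold. Summed, they made up 71872 FPKM in the resistant library (6.65% of its total) and 78443 FPKM in the parental library (7.69%). With MTRNR2L loci left out of the totals the shares were 7.93% and 8.26%.

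Levels of single ribosomal protein mRNAs, although their products are needed in like numbers, spread over 62.1-fold in the resistant and 65.4-fold in the parental library, in FPKM, a scale per length. RPS20, of the 40S head, was the highest at 3024 FPKM in resistant and 3091 FPKM in parental cells. RPL41, the shortest ribosomal protein, had 2223 FPKM in resistant and 2556 FPKM in parental cells, and RPS7 had 2323 and 2359 FPKM. Apart from copies such as RPL22L1, the lowest was RPL28 with 69.0 FPKM in resistant and 60.8 FPKM in parental cells, followed by RPS23, which lies at the decoding centre, with 131 and 124 FPKM. The order hardly differed between libraries (Spearman's rho 0.988 across the 80 genes, which share both libraries and are no replicates). Processed pseudogenes of nearly every ribosomal protein gene can share its reads, and how the counting treated such reads is not given in the sources used here, so levels are less certain than for genes with no copies.

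**Figure D3:**
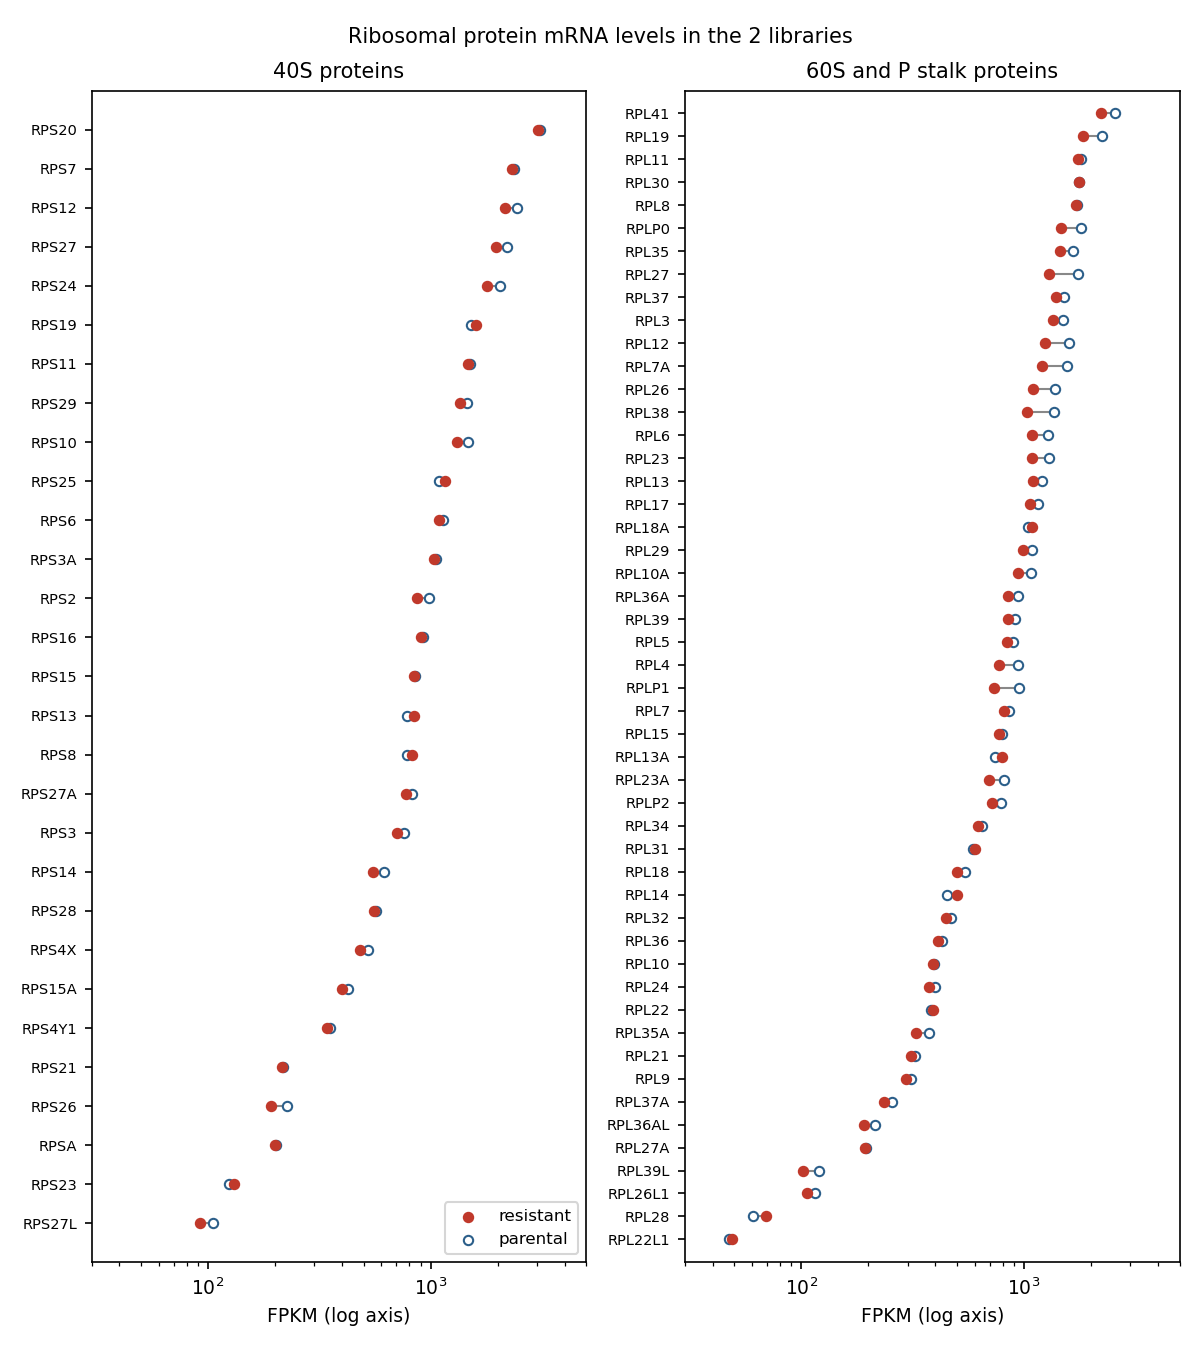
FPKM on a log axis (horizontal) of 29 of the 30 small-subunit genes and of 50 large-subunit and P stalk genes (rows, by mean level) in the resistant (filled red) and parental (open blue) library. Most pairs of points nearly coincide; RPL27, RPL38, RPL12, RPL7A and RPLP1 show the widest gaps, with the resistant point on the left.

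By median, the large subunit leaned lower than the small one, and less so beside other genes of the same chromosome. Over 47 genes of the 60S subunit the median ratio was -0.12, with a 95% interval from order statistics of -0.16 to -0.072, and over 30 genes of the 40S subunit it was -0.041, with an interval of -0.11 to -0.022. The intervals overlap. Each is an interval of the median that takes genes as independent draws. The genes share 1 pair of libraries and are no replicates, so the overlap cannot decide whether the subunits differ. The 12 lowest ribosomal protein ratios all belonged to the large subunit or its stalk, which hold 50 of the 80 genes. The lowest of the small subunit, RPS26, stood at rank 13 with 192 FPKM in resistant and 227 FPKM in parental cells (-0.24). At the other end, the large subunit and stalk had 4 of the 10 highest ratios and 11 of the 20 highest. Of the 10 lowest, 5 lay on chromosome 17, whose 6 ribosomal protein genes all belong to the large subunit. Without those 6, the 60S median was -0.10. As sums, 40S mRNAs had 0.708 of the FPKM of 60S and stalk mRNAs in the resistant library and 0.660 in the parental library.

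RPL27 had 1297 FPKM in resistant and 1743 FPKM in parental cells (-0.43). RPL38, known in mice for a part in the translation of Hox mRNAs, had 1028 FPKM in resistant and 1358 FPKM in parental cells (-0.40). RPL12, at the base of the stalk, had 1236 FPKM in resistant and 1587 FPKM in parental cells (-0.36). None of the 3 came near the 2-fold limit.
The P stalk, the flexible arm that recruits elongation factors, had all 3 of its genes below 0. RPLP1 had 734 FPKM in resistant and 948 FPKM in parental cells (-0.37). RPLP0 had 1471 FPKM in resistant and 1807 FPKM in parental cells (-0.30), and RPLP2 had 719 FPKM in resistant and 792 FPKM in parental cells (-0.14).

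RPL5 and RPL11, which with 5S rRNA hold back the p53 ligase MDM2 when assembly of ribosomes fails, lay close to equal. RPL5 had 834 FPKM in resistant and 895 FPKM in parental cells (-0.10), and RPL11 had 1753 and 1798 FPKM (-0.037). RPS6, the subunit protein phosphorylated by S6 kinases, had 1091 FPKM in resistant and 1134 FPKM in parental cells (-0.056). RPS3, which also has a DNA repair activity, had 706 FPKM in resistant and 762 FPKM in parental cells (-0.11).

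The members above 0 were no further from it. RPL28 had the highest ratio, 0.18. RPL14 had 501 FPKM in resistant and 451 FPKM in parental cells (0.15). RPL13A, which can also leave the ribosome to silence interferon-gamma-induced mRNAs, had 797 FPKM in resistant and 739 FPKM in parental cells (0.11). With equal sums RPL28 stood at 0.097, and with equal sums after MTRNR2L loci were left out at 0.25.

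The small shifts went with position in the genome. This relation was noticed in the data and is a description. All 6 ribosomal protein genes of chromosome 17 lay below 0, from -0.43 to -0.22, beside a median of -0.16 for the 717 other genes compared there. On chromosome 15, RPLP1, RPL4 and RPS27L had a median of -0.29, and the 409 other genes one of -0.20. On chromosome 19, 5 of 11 ribosomal protein genes lay above 0 and 6 below, with a median of -0.019. The 886 other genes there had a median of 0.085, of the opposite sign. Signs also differed on chromosomes 3, 8, 11 and 16. On chromosome 16 the medians were -0.13 for ribosomal protein genes and 0.025 for the others. These other genes are of all levels. Among those with a mean of at least 100 FPKM, the median on chromosome 19 was 0.016. On chromosomes 3, 8, 11 and 16 it was -0.020, -0.0046, -0.061 and -0.12, of the same sign as for the ribosomal protein genes. Over the 15 chromosomes with at least 3 ribosomal protein genes, Pearson's r between the median of those genes and the median of the other genes was 0.82.

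Near each gene the picture was the same. The ratio of a ribosomal protein gene had an r of 0.71 with the median of the 25 nearest other genes on each side, over 79 genes that share neighbourhoods and both libraries. Subtracting that local median reduced the SD across these genes to 0.094, against 0.13 before. The median of the 40S genes was then -0.046, and that of the 60S genes -0.096. With the median of the chromosome's other genes subtracted instead, the subunits lay closer, at -0.076 for 40S and -0.090 for 60S. RPL28 was 0.017 above its neighbours, and RPL27 lay 0.25 below its own, with a local median of -0.17. DNA copy number was not measured, and its part in these values was not tested.

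**Figure D4:**
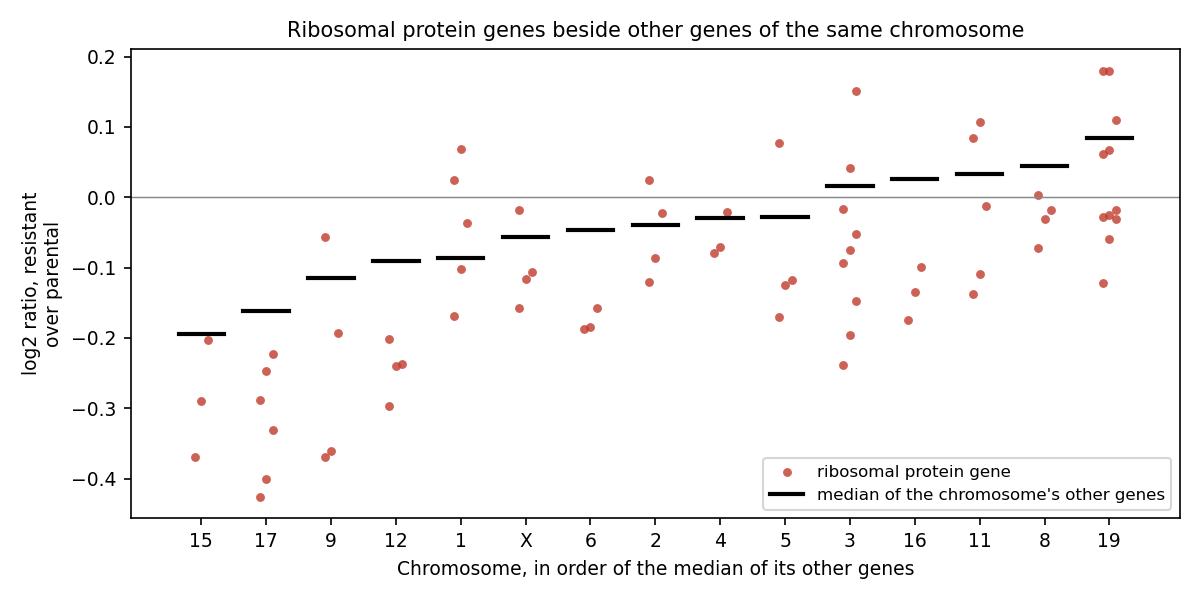
Log2 ratio, resistant over parental (vertical axis), of each ribosomal protein gene (red points) on the 15 chromosomes that hold at least 3 of them (horizontal axis), with the median of the other genes of that chromosome (black bars), by which the chromosomes are ordered. Points lie lowest on chromosomes 15, 17, 9 and 12 and reach highest, 0.18, on chromosome 19.

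Some ribosomal proteins have a second gene for a close copy, and each copy took a close share of its pair in both libraries. RPL22L1, a copy of RPL22, had 48.7 FPKM in resistant and 47.3 FPKM in parental cells, or 11.1% and 11.0% of the pair. RPL39L, best known from testis, had 102 FPKM in resistant and 120 FPKM in parental cells, or 10.8% and 11.7% of the pair with RPL39. RPS27L, a p53 target, had 91.7 FPKM in resistant and 106 FPKM in parental cells, or 4.47% and 4.58% of the pair with RPS27.
RPL26L1 made up 8.81% of its pair with RPL26 in resistant and 7.73% in parental cells, and its ratio of -0.13 became -0.24 with its loci summed. RPL36AL made up 18.4% and 18.5% of its pair with RPL36A, whose row also holds HNRNPH2. RPS4Y1 had 341 FPKM in resistant and 354 FPKM in parental cells, beside 483 and 524 FPKM for RPS4X. Copies this close can share reads, which was not tested here, so these shares are uncertain.

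Initiation factors had a median of -0.10 over 37 genes, 28 below 0 and 9 above. The start of initiation was close to equal. EIF1, which guards the choice of start codon, had 138 FPKM in resistant and 151 FPKM in parental cells (-0.14), and its copy EIF1B had 34.8 and 31.9 FPKM (0.12). The 3 subunits of eIF2, which carries the initiator tRNA and is inactivated by stress kinases, had ratios from -0.13 for EIF2S2 to 0.015 for EIF2S3. EIF2S1, the subunit that those kinases phosphorylate, had 26.1 FPKM in resistant and 26.6 FPKM in parental cells (-0.032).

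eIF2B, which reloads eIF2 with GTP, was less uniform. EIF2B1, its alpha subunit, had 38.6 FPKM in resistant and 53.6 FPKM in parental cells (-0.46). EIF2B4, the delta subunit, had 32.1 FPKM in resistant and 27.8 FPKM in parental cells (0.20), and the other 3 genes lay between -0.25 and -0.10. EIF2D, which can place tRNA on the 40S subunit without GTP, had 26.1 FPKM in resistant and 39.6 FPKM in parental cells (-0.58), the second lowest ratio of all members. The 25 genes on each side of EIF2D had a median of -0.23.

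The 11 measured subunits of eIF3, the scaffold on the 40S subunit, had a median of -0.15 and ratios from -0.25 to 0.13. EIF3I was the lowest, with 250.4 FPKM in resistant and 298 FPKM in parental cells. EIF3G was the highest, with 148 FPKM in resistant and 135 FPKM in parental cells. EIF3E had by far the most, 713 FPKM in both libraries. EIF6, which keeps free 60S subunits from joining, had 80.2 FPKM in resistant and 75.3 FPKM in parental cells (0.091).

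The eIF4 group, which binds the cap and unwinds the leader, held the single large difference. EIF4E3, a further form of the cap-binding protein, fell to 5.39 FPKM in resistant cells, against 22.6 FPKM in parental cells. Its log2 ratio was -1.88, the 69th lowest of 12405 genes, and without the pseudocount parental cells had 4.19-fold more. Its minus-strand gene spans bases 71675416 to 71754773 of chromosome 3 in GENCODE release 29 (GRCh38), and its row lay in the part of the table that the order of loci places on that strand. The ratio stayed between -2.05 and -1.41 in each setting tried.

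Neither cap-binding relative had a like difference. EIF4E itself, the main cap-binding protein, had 45.1 FPKM in resistant and 51.1 FPKM in parental cells (-0.18). EIF4E2, which competes for caps and can repress translation, had 75.4 FPKM in resistant and 79.3 FPKM in parental cells (-0.073). EIF4E3 made up 4.28% of the FPKM of the 3 genes in resistant cells and 14.8% in parental cells. In mammalian cells EIF4E3 binds the cap but lacks the full aromatic pocket of EIF4E.

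Ratios of the nearest genes went both ways. The 50 nearest other genes had a median of 0.016, and the 3 on each side ran from -0.90 for ARL6IP5 to 1.75 for MITF. GPR27, on the opposite strand and overlapping the start of EIF4E3, had 3.90 FPKM in resistant and 5.20 FPKM in parental cells (-0.34). FOXP1, on the other side, had 19.0 FPKM in resistant and 28.6 FPKM in parental cells (-0.56). RYBP had 12.9 FPKM in resistant and 11.7 FPKM in parental cells (0.13).

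The rest of the eIF4 group lay between -0.20 and 0.22. The scaffold EIF4G1 had 184 FPKM in resistant and 211 FPKM in parental cells (-0.20), and its relative EIF4G3 had 196 and 205 FPKM (-0.066), so both stood at like levels. The helicase EIF4A1, in a row joined with its readthrough partner, had 569 FPKM in resistant and 633 FPKM in parental cells (-0.15). Its copy EIF4A2 had 64.2 FPKM in resistant and 54.8 FPKM in parental cells (0.22), the highest ratio of any initiation factor. EIF4A3, a relative that works in the exon junction complex, had 78.1 FPKM in resistant and 100.3 FPKM in parental cells (-0.36). The 4E-binding proteins, which mTORC1 releases from EIF4E, had 135 FPKM in resistant and 153 FPKM in parental cells for EIF4EBP1 (-0.17) and 42.9 and 46.8 FPKM for EIF4EBP2 (-0.12).

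**Figure D5:**
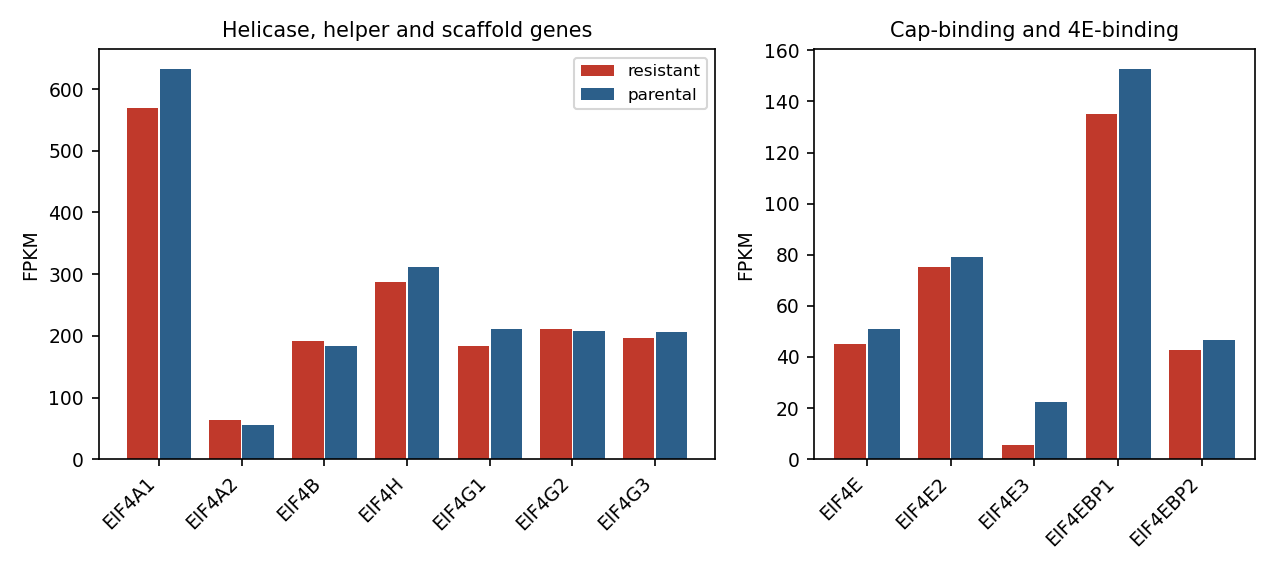
FPKM (vertical axis, from 0, a scale for each panel) of eIF4 genes and the 4E-binding proteins in the resistant (red, left bar) and parental (blue, right bar) library, 1 library each and so with no error bar. EIF4E3 stands at 5.39 against 22.6 FPKM; the other ratios lie between -0.20 and 0.22.

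Of the 9 elongation and release factors 6 lay below 0 and 3 above. EEF1A1, which delivers charged tRNAs, had 2604 FPKM in resistant and 2326 FPKM in parental cells (0.16). EEF1A2, the form of nerve and muscle, had 333 FPKM in resistant and 330.2 FPKM in parental cells (0.011), or 11.3% and 12.4% of the pair. EEF2, the translocase, had 694 FPKM in resistant and 698 FPKM in parental cells (-0.0066). EEF1G and EEF1B2, of the exchange complex that recharges EEF1A, had ratios of -0.060 and -0.097.
EIF5A, the hypusine-bearing factor that helps at difficult peptide bonds, had 346 FPKM in resistant and 384 FPKM in parental cells (-0.15), and its copy EIF5A2 had 9.84 and 8.20 FPKM (0.24), the highest ratio of all members. ETF1, the release factor, had 76.2 FPKM in resistant and 79.7 FPKM in parental cells (-0.063). The median of these 9 genes, -0.060, turned to 0.0077 with equal sums after MTRNR2L loci were left out.

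Of the 11 further names, EEF2K, the kinase that inhibits EEF2, had 5.84 FPKM in resistant and 7.14 FPKM in parental cells (-0.25). EIF4ENIF1, which carries EIF4E into the nucleus, had 12.2 FPKM in resistant and 11.5 FPKM in parental cells (0.080, and 0.0022 with its loci summed). RPL7L1, an assembly factor, had 460 FPKM in resistant and 500 FPKM in parental cells in a row that the order of the table places on neither strand (-0.12). Its row on the annotated strand had 87.8 FPKM in resistant and 102 FPKM in parental cells (-0.22).

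Having the tract within 5 bases of the start did not go with a lower ratio among ribosomal proteins. The 51 genes with a tract had a median of -0.11, with 41 below 0. The 14 without one had a median of -0.12, with all 14 below 0. Among initiation factors the medians were -0.088 for 12 genes with a tract and -0.11 for 19 without. Among elongation and release factors they were 0.16 for 3 genes with a tract and -0.073 for 5 without. This rule also takes runs that end before the annotated start, as in RPL19 and EIF5A2, and runs that begin after it, as in RPL4. Ratios were not split by a run on the first base, so the comparison does not speak to TOP mRNAs as such.
Other mRNAs known for TOP tracts lay on both sides of 0. TPT1, a growth-related protein, had 583 FPKM in resistant and 462 FPKM in parental cells (0.33), and NAP1L1, HNRNPA1, NACA and BTF3 lay between -0.24 and -0.036.

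Lists of genes that act on this machinery were compared by the same limit. Beside their counts, 55.6% of all genes compared lay below 0, and 72.3% of those with a mean of at least 100 FPKM. Past 2-fold, 3.28% of all genes compared were higher and 2.70% lower. The list medians and counts were not computed under other scalings, on which small ratios depend. The 24 measured ribosome assembly genes had a median of -0.087, with 23 below 0 and 0 past 2-fold. NPM1, the most abundant nucleolar protein of the list, had 2167 FPKM in resistant and 2515 FPKM in parental cells (-0.21), and SBDS, which helps to evict EIF6, was the one above 0, with 92.9 and 80.6 FPKM (0.20). Of 14 other translation proteins 11 lay below 0 and none passed 2-fold. PAIP2, an inhibitor of the poly(A)-binding protein, was the lowest at 68.1 FPKM in resistant and 97.8 FPKM in parental cells (-0.52).

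Of ribosomal proteins that go by other names, FAU had 552 FPKM in resistant and 524 FPKM in parental cells (0.076), and GNB2L1 (RACK1) had 1116 and 1206 FPKM (-0.11). Of 17 measured genes of mTORC1 and the S6 kinases 1 was higher past 2-fold, where 3.28% of all genes compared were. DEPTOR, which binds and inhibits mTOR, had 11.0 FPKM in resistant and 1.31 FPKM in parental cells (2.38, and 1.34 with a pseudocount of 5). RPS6KA3, the kinase RSK2, had 39.6 FPKM in resistant and 78.8 FPKM in parental cells (-0.97, and -1.06 with equal sums). MTOR had 162 FPKM in resistant and 178 FPKM in parental cells (-0.13), and the S6 kinase RPS6KB1 had 333 and 311 FPKM (0.098).

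Of 7 measured eIF2 kinases and regulators 1 was higher past 2-fold, where 3.28% of all genes compared were. EIF2AK3 (PERK), the eIF2 kinase of the endoplasmic reticulum, had 37.1 FPKM in resistant and 17.3 FPKM in parental cells (1.06). It moved inside 2-fold with a pseudocount of 5 (0.92) and with equal sums (0.97). EIF2AK4 (GCN2), the kinase that senses uncharged tRNA, had 31.2 FPKM in resistant and 39.7 FPKM in parental cells (-0.34). ATF4, whose translation rises when eIF2 is phosphorylated, had 177 FPKM in resistant and 231 FPKM in parental cells (-0.38). PPP1R15A, the inducible subunit of the eIF2 phosphatase, had 11.9 FPKM in resistant and 9.46 FPKM in parental cells (0.30). Translation itself was not measured.

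Across the series, the table listed 17574 loci at 1 FPKM or more in the resistant library and 17075 in the parental library. It holds no counts, so the depth behind a value is unknown, though the worth of 1 read was nearly equal, at a resistant to parental ratio of 0.996. Of 14 listed markers of this cancer's identity 7 were measured, 5 with a ratio above 0 and 2 below. Over all genes compared, 55.6% lay below 0, and past 2-fold 3.28% were higher and 2.70% lower. The 7 are too few to set against those shares. The 2 below were SOX2, with 197 FPKM in resistant and 214 FPKM in parental cells (-0.12), and NKX2-1, with 3.12 and 4.33 FPKM (-0.37). YAP1 was at 84.7 FPKM in resistant and 76.6 FPKM in parental cells. The neuroendocrine marker SYP was at 8.62 and 8.56 FPKM, and NCAM1 at 1.64 and 0.821 FPKM. CDH1, an epithelial cadherin, was the one past 2-fold, with 4.81 FPKM in resistant and 0.536 FPKM in parental cells (1.92). Of 9 markers of other cells 3 were measured (HBB, COL1A1 and PDGFRA), with a summed level of 14.4 FPKM in resistant and 53.0 FPKM in parental cells. PDGFRA, with 10.1 FPKM in resistant and 48.0 FPKM in parental cells, made up most of both sums. HBB was also lower past 2-fold, at 0.472 FPKM in resistant and 2.69 FPKM in parental cells. COL1A1 had 3.85 FPKM in resistant and 2.34 FPKM in parental cells (0.54), a ratio above 0. The part of these markers in the ratios above was not tested.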

How the data were processed

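The deposited values are FPKM, fragments scaled to locus length and library size, with the resistant and the parental library in a column each, per the file headers. The build hg38 and the aligner TopHat2 are listed, per the submitters' processing notes, which give no version. Which program and gene models gave the FPKM is not given in the sources used here. The label descriptions named the columns. Of 19217 loci, 2919 had no name and 23 a date for a name, and these were left out. Where a name had more than 1 locus, the one with the most FPKM on average was used; 15 members had several loci, and EEF1E1, EIF4A1, RPL13, RPL17, RPL36A and RPS10 lay in loci joined with other symbols. RPS9, RPS18, EIF3C, EIF3F and EEF1D were not analysed here. Genes reaching 1 FPKM in a library were compared as log2 of FPKM plus a pseudocount of 1, which understates the change of low genes, with a limit of 2-fold in place of a test. Strand was inferred from the order of loci and GENCODE release 29: 135 members lay on their annotated strand. The interval of a median is the 95% interval from order statistics. The worth of 1 read was read from 7591 low loci, of which 53.4% had a ratio equal, within a relative 4e-05, to one of whole numbers up to 20 times 0.996. Members and lists were chosen with earlier results of these data known. Named genes were those past 2-fold, the extremes and the most abundant of each role, and paralogue pairs; others, and the chromosome comparison, were picked with their values in view. An item that the rule names is not reported here. The 2-fold rule was checked on simulated folds set beyond that limit, which does not bear on small ratios, scaling or the lack of replicates. Alternatives were 2 further pseudocounts, 2 filters, 3 scalings and 2 ways to choose loci. Software was matplotlib 3.10.9, SciPy 1.17.1, NumPy 2.4.6 and pandas 2.3.3 under Python 3.11.15.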

Additional observations from a re-analysis of the deposited data

How the results depend on the processing

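No paired analysis was possible because each group has 1 library. The counts of 0 members higher and 1 lower held under all 9 alternatives listed for them and under 1 chosen after seeing the data, members with a row of their own only. The medians moved most with scaling. Scaled to equal sums, they were -0.19 for ribosomal proteins, -0.19 for initiation factors and -0.14 for elongation and release factors. With equal sums after MTRNR2L loci were left out they were -0.035, -0.036 and 0.0077, the last with its sign turned, and 48 of 80 ribosomal proteins lay below 0 in place of 66. Division by the median ratio gave -0.062 for ribosomal proteins, -0.062 for initiation factors and -0.019 for elongation and release factors, with 53 ribosomal proteins below 0. A pseudocount of 5 gave -0.10, -0.095 and -0.052 for the same groups, and members with a row of their own gave -0.097 for ribosomal proteins. Of 137 members, 29 turned sign under equal sums without MTRNR2L loci, 18 under the median ratio and 15 under equal sums. Pseudocounts, filters, summed loci and strand-assigned loci turned none. Over all genes, 614 were higher and 478 lower with a pseudocount of 0.1, and 142 and 136 with 5, in place of 407 and 335. How many reads stand behind a value is unknown, so low members such as EIF4E3 in resistant cells and EIF3J-AS1 are the least certain.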
